A study of Mus musculus with 19 samples.

Results

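TRBV13-1, TRBV13-2 and TRBV13-3 are the mouse T cell receptor beta (TRB) variable segments that make up the TRBV13 family, known in older work as Vβ8. They were chosen by name: every entry of the 19 deposited library tables whose V segment was one of the 3 members was taken, and each member was described apart. The members were 3 of 22 TRBV segments in the tables. They held 639751 of 2146950 listed entries and 13853745 of 145647255 reads, which was 9.51% of all reads. An entry is a CDR3 amino acid string with its V and TRBJ segment and a read count. All 3 members were found in the RefSeq gene table (GRCm38.p6), where TRBV13-1 carries the older name Tcrb-V8.3, TRBV13-2 Tcrb-V8.2 and TRBV13-3 Tcrb-V8.1. In the order of that table Trbv13-1 lies between Trbv12-1 and Trbv12-2, Trbv13-2 between Trbv12-2 and Trbv12-3, and Trbv13-3 between Trbv12-3 and Trbv14. Coordinates are left out, because the build behind the tables is not named in them.

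As background, a beta chain is made when a V segment, a D segment and a J segment are joined during T cell development. The V segment encodes the first 2 loops that contact the peptide-MHC complex (CDR1 and CDR2), and the join itself forms the third and most variable loop, the CDR3. Genes of the Vβ8 family are widely used by mouse CD4+ T cells, respond to staphylococcal enterotoxin B, and supply the beta chains of many T cells specific for self peptides in mouse models of autoimmune disease. The joined J segment comes from the TRBJ1 or the TRBJ2 cluster.

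The libraries were made from sorted CD4+ TCRβ+ T cells of wild-type BALB/c mice, perfused with saline and killed on day 7 after surgery or injection. The study asked which receptors CD4+ T cells carry in the lymph nodes that drain the infarcted heart, in the infarcted heart itself, and after immunization with heart antigens. Node libraries came from 500000 cells and heart libraries from 5000 cells. RNA was amplified by multiplex PCR with V segment primers and read from within framework 3 through the CDR3 into the constant region, per the labels' protocols.

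Surgery gave 3 groups. Mediastinal nodes were taken after a sham operation (thoracotomy without ligation, 4 libraries) or after myocardial infarction (MI) by ligation of the left anterior descending coronary artery (3 libraries). CD4+ T cells of infarcted hearts gave 3 more libraries. Injection under the skin gave 3 groups of axillary nodes: Titermax Gold adjuvant alone (4 libraries), adjuvant with 100 µg porcine cardiac myosin (2 libraries) and adjuvant with 1 mg mouse heart protein extract (3 libraries). The adjuvant volume given to each antigen library is not assigned in the labels, so volume and antigen cannot be told apart, and tissue and treatment cannot be told apart between mediastinal and axillary nodes. Whether each library came from its own animal is not in the labels, and p-values then measure the sample-to-sample spread, which may be technical.

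Node libraries held 7534295 to 9235800 reads and heart libraries 2426715 to 5126910 reads. The lowest count listed was 2. In bulk libraries more cells with a receptor and more TRB RNA per cell cannot be told apart. Levels of different V segments in a library also depend on their primers, and that dependence was not tested. No marker gene of another cell type is measured in such libraries, so the V assignment was checked against the residues that open the CDR3.

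The strings below show what that comparison found. The same CDR3 was listed under both TRBV13-1 and TRBV13-2, in proportions that went with its opening residues. They are among the 2 most abundant entries of TRBV13-1, TRBV13-2 or TRBV13-3 in a heart library. They are printed as listed, which leaves off the conserved cysteine before and phenylalanine after the loop.
Heart 1, TRBJ1-4, 5573 reads under TRBV13-1 and 3098 under TRBV13-2: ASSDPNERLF
Heart 1, TRBJ2-3, 4769 reads under TRBV13-1 and 2630 under TRBV13-2: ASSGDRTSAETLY
Heart 3, TRBJ1-5, 8030 reads under TRBV13-1 and 4965 under TRBV13-2: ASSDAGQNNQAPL
Heart 2, TRBJ1-4, 7538 reads under TRBV13-1 and 14701 under TRBV13-2: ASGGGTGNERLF
Heart 1, TRBJ1-4, 3114 reads under TRBV13-1 and 7220 under TRBV13-2: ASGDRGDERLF
Heart 1, TRBJ1-4, 18 reads under TRBV13-1 and 5581 under TRBV13-2: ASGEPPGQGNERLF
Heart 2, TRBJ1-2, 12 reads under TRBV13-1 and 20806 under TRBV13-2: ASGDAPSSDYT
Heart 1, TRBJ1-3, 3505 reads under TRBV13-3 and 0 under either other member: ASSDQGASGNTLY
Heart 2, TRBJ1-1, 2916 reads under TRBV13-3 and 0 under either other member: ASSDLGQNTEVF
Heart 3, TRBJ2-1, 6502 reads under TRBV13-3 and 0 under either other member: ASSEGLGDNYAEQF

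Nearly all TRBV13-1 reads carried a CDR3 and TRBJ that TRBV13-2 also listed in the same library. In the 3 hearts this held for 98.7% to 99.2% of TRBV13-1 reads, and in the 16 nodes for a median of 97.7% (89.3% to 99.3%). The reverse overlap was smaller. In hearts 83.8% to 95.7% of TRBV13-2 reads were also listed under TRBV13-1, and in nodes the median was 60.4% (55.6% to 65.3%). By median, the overlap of TRBV13-1 with TRBV13-2 ranked 5 of 380 ordered segment pairs in hearts and 2 of 462 in nodes. Such overlap was not particular to these members. In hearts a median of 99.4% of TRBV15 reads were also listed under TRBV4, and in nodes 97.8% of TRBV24 reads under TRBV26. TRBV13-3 stood apart: 0.501% to 4.13% of its heart reads and a median of 16.2% of its node reads (6.34% to 29.3%) were also listed under TRBV13-1. Among entries of at least 100 reads in hearts, TRBV13-2 also listed 58 of 58, 76 of 76 and 115 of 117 TRBV13-1 entries in hearts 1, 2 and 3. The other members listed 1 of 20, 0 of 33 and 2 of 57 TRBV13-3 entries of that size.

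The split between TRBV13-1 and TRBV13-2 followed the first residues of the CDR3. For strings with at least 1000 reads under the 2 members together, the share listed under TRBV13-1 in hearts had a median of 66.6% where the CDR3 opened with ASS (quartiles 64.3% and 70.4%, 94 strings). The median was 30.5% where it opened with ASG and a residue other than D or E (quartiles 28.9% and 32.6%, 68 strings). Strings that opened with ASGD or ASGE had a median of 0.206% under TRBV13-1 (quartiles 0.123% and 0.398%, 60 strings). A few strings of this last kind lay far from it, up to 69.4%, and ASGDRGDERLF above is among them. In nodes the medians were 65.8% (14 strings), 30.5% (19 strings) and 0.150% (10 strings) in the same order. The strings are printed as amino acids and the reads begin within framework 3, so whether they came from 1 rearrangement or from 2 was not tested. The tests and levels of TRBV13-1 and TRBV13-2 below are therefore as listed, unless they are said to be with each CDR3 and TRBJ assigned, in each library, to the member with most of its reads (called reassigned reads), or with both members summed.

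**Figure D1:**
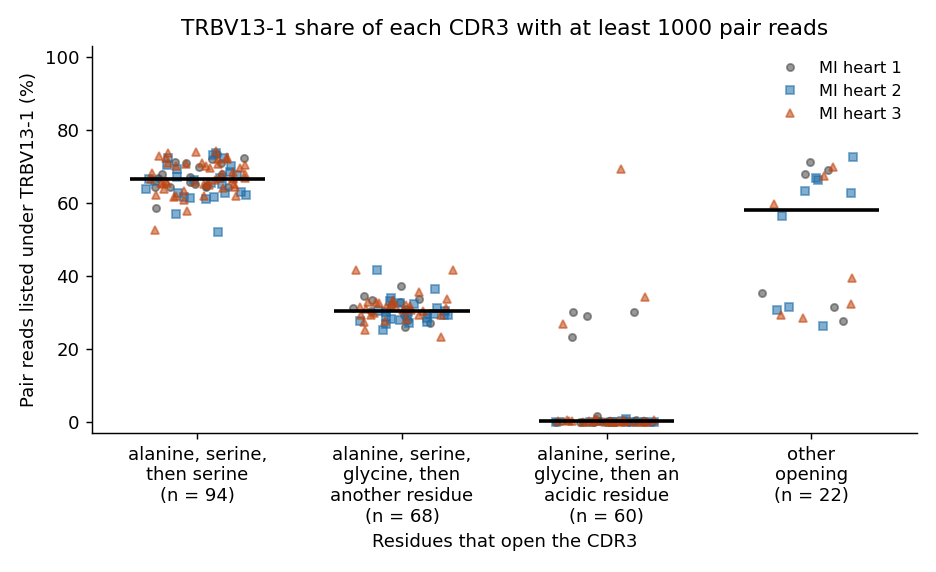
Share of reads listed under TRBV13-1 among the reads of a CDR3 listed under TRBV13-1 and TRBV13-2 (percent), for strings of at least 1000 such reads in the 3 heart libraries, by the residues that open the CDR3 (alanine, serine, serine is ASS; glycine is G; the acidic residues are D and E). Each point is 1 string in 1 heart and lines are medians; ASS strings lie around 66.6%, those with ASG and another residue around 30.5%, and most with ASGD or ASGE near 0.

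The openings differed between members over whole libraries too. Of TRBV13-1 reads in the 16 nodes, 69.4% ± 1.07 (SD) opened with ASS and 18.1% ± 0.919 with ASG. TRBV13-2 was the reverse, with 68.4% ± 1.39 ASG and 24.6% ± 1.15 ASS. TRBV13-3 opened with ASS in 77.5% ± 1.41 of its reads, with ASR in 13.9% ± 1.04 and with ASG in 1.06% ± 0.147. In hearts (n = 3) ASS opened 58.4% ± 9.54 of TRBV13-1 reads and 86.7% ± 9.07 of TRBV13-3 reads, and ASG opened 77.6% ± 3.23 of TRBV13-2 reads.

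TRBV13-3 shared strings with segments outside the family. In hearts 56.8% to 71.8% of its reads had a CDR3 and TRBJ that TRBV3 also listed, and 31.4% to 40.6% one that TRBV5 also listed. In hearts the reads lay almost wholly under TRBV13-3: it held 93.4% to 97.0% of the reads of the strings shared with TRBV3 and 97.8% to 98.2% of those shared with TRBV5. In nodes it held a median of 90.0% (72.3% to 93.8%) and 42.7% (15.9% to 80.7%). TRBV13-1 likewise shared 32.2% to 42.2% of its heart reads with TRBV29 and held 89.7% to 94.9% of the shared reads, against a median of 81.0% in nodes (50.5% to 90.9%). TRBV13-2 shared strings with TRBV29 too. It held 91.9% to 99.1% of the reads of those strings in hearts and a median of 84.7% in nodes (49.3% to 92.4%). No string of any member was also listed under TRBV19, the most abundant segment, in a heart, while in nodes a median of 6.01% of TRBV13-3 reads (1.64% to 13.6%) were.

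As listed, the members kept a fixed order of level in the nodes. TRBV13-2 made up 4.66% ± 0.161 of all TRB reads (SD, n = 16; lowest 4.44%, median 4.66%, highest 4.92%), TRBV13-1 3.29% ± 0.107 (3.05%, 3.30%, 3.45%) and TRBV13-3 1.54% ± 0.0984 (1.41%, 1.51%, 1.74%). The 3 ranges did not overlap. The widest 95% Wilson interval of a member's share in a node spanned 0.0304 percentage points, and it covers counting error only, since PCR reads without molecular identifiers are not independent molecules. TRBV13-2 ranked 6, TRBV13-1 10 and TRBV13-3 11 among the 22 segments by mean node share. TRBV13-2 sat beside TRBV2, at 4.64% ± 0.432, from which it did not differ beyond the spread, TRBV13-1 lay below TRBV20 (3.67% ± 0.184), and TRBV13-3 lay above TRBV16 (1.27% ± 0.469), with overlapping spread. With reassigned reads these neighbours changed by mean share. TRBV13-1 (3.86% ± 0.162) then lay above TRBV31 (3.75% ± 0.203) and TRBV20, and TRBV13-2 (4.09% ± 0.220) lay below TRBV2.

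As listed, TRBV13-1 and TRBV13-2 varied less between nodes than the other segments. Their coefficients of variation over the 16 nodes, 3.24% and 3.46%, were the lowest 2 of 22, and that of TRBV13-3 was 6.40%, rank 9 from the lowest. With reassigned reads TRBV13-1 was at 4.21%, still the lowest, and TRBV13-2 at 5.38%, rank 6. By the root mean square difference of centred log2 shares over the 16 nodes, the segment most like TRBV13-1 was TRBV13-2 (0.0436), followed by TRBV31 (0.0699) and TRBV13-3 (0.0740). TRBV13-2 was most like TRBV13-1, then TRBV31 (0.0641) and TRBV19 (0.0840). TRBV13-3 was most like TRBV13-1 (0.0740), then TRBV20 (0.0876) and TRBV13-2 (0.0900). Steady segments lie close to each other by this measure. With reassigned reads of the members the order changed: TRBV13-1 was most like TRBV13-3 (0.0763), then TRBV20 (0.0775) and TRBV5 (0.0893), and TRBV13-2 was most like TRBV31 (0.0659), then TRBV1 (0.0958) and TRBV19 (0.0992). TRBV13-3 was then most like TRBV13-1, TRBV20 (0.0910) and TRBV2 (0.0975).

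Within each node TRBV13-2 exceeded TRBV13-1 by 1.36 ± 0.134 percentage points of all reads (SD, n = 16) and TRBV13-3 minus TRBV13-1 was −1.76 points, in 16 of 16 nodes each. Both passed the exact two-sided sign-flip permutation test (p = 3.05e-05, the smallest that 65536 sign patterns allow; Benjamini-Hochberg adjusted p = 3.52e-05 over the 15 tests between members). The lead of TRBV13-2 over TRBV13-1 depended on how shared CDR3s were assigned. With reassigned reads it was 0.23 points (4.09% ± 0.220 against 3.86% ± 0.162, adjusted p = 0.0101 by the exact sign-flip permutation test). The order was then not the same in every node. TRBV13-1 lay above TRBV13-2 in sham node 4, adjuvant nodes 1, 2 and 3 and extract node 3. TRBV13-3 was at 1.54% ± 0.104 with reassigned reads.

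Across the 5 node groups TRBV13-1 varied little. Its shares were 3.27%, 3.40%, 3.24% and 3.32% in sham nodes 1 to 4, and 3.22%, 3.19% and 3.21% in MI nodes 1 to 3. They were 3.33%, 3.45%, 3.21% and 3.35% in adjuvant nodes, 3.39% and 3.38% in myosin nodes, and 3.05%, 3.25% and 3.42% in extract nodes. Hearts 1, 2 and 3 held 3.15%, 2.31% and 3.27%. The group means ran from myosin nodes (3.39%) through adjuvant, sham, extract and MI nodes to hearts (2.91% ± 0.521), and each neighbour in that order overlapped the next. Heart 2 was the lowest of the 19 libraries. With reassigned reads hearts held 2.20% to 3.47%, below the lowest node at 3.62%, so that overlap rests on how shared CDR3s were assigned.

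TRBV13-2 was highest in hearts. Its shares were 5.44%, 4.88% and 6.27% in hearts 1, 2 and 3, against 4.65%, 4.52% and 4.53% in MI nodes 1 to 3. Sham nodes held 4.50%, 4.88%, 4.92% and 4.58%, adjuvant nodes 4.47%, 4.73%, 4.44% and 4.85%, myosin nodes 4.85% and 4.76%, and extract nodes 4.47%, 4.69% and 4.68%. In the order of means, hearts, myosin, sham, adjuvant, extract and MI nodes, the hearts did not overlap the myosin nodes next to them and every other neighbour overlapped. Heart 2 lay within the sham range, so hearts were not above every node as listed. With reassigned reads hearts held 4.99% to 6.32% and lay above the highest node, at 4.54%.

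TRBV13-3 was lowest in hearts, with 1.15%, 1.01% and 1.54% in hearts 1, 2 and 3. Its shares were 1.51%, 1.43%, 1.41% and 1.51% in sham nodes, 1.41%, 1.52% and 1.45% in MI nodes, and 1.48%, 1.64%, 1.55% and 1.74% in adjuvant nodes. Myosin nodes held 1.63% and 1.62%, and extract nodes 1.48%, 1.54% and 1.68%. From myosin through adjuvant, extract, sham and MI nodes to hearts, each group overlapped the next. Of the family's reads as listed, TRBV13-1, TRBV13-2 and TRBV13-3 made up 34.9%, 49.7% and 15.4% in sham nodes and 30.0%, 57.3% and 12.6% in hearts. With reassigned reads these shares were 40.6%, 43.9% and 15.5% in sham nodes and 30.6%, 56.7% and 12.8% in hearts.

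**Figure D2:**
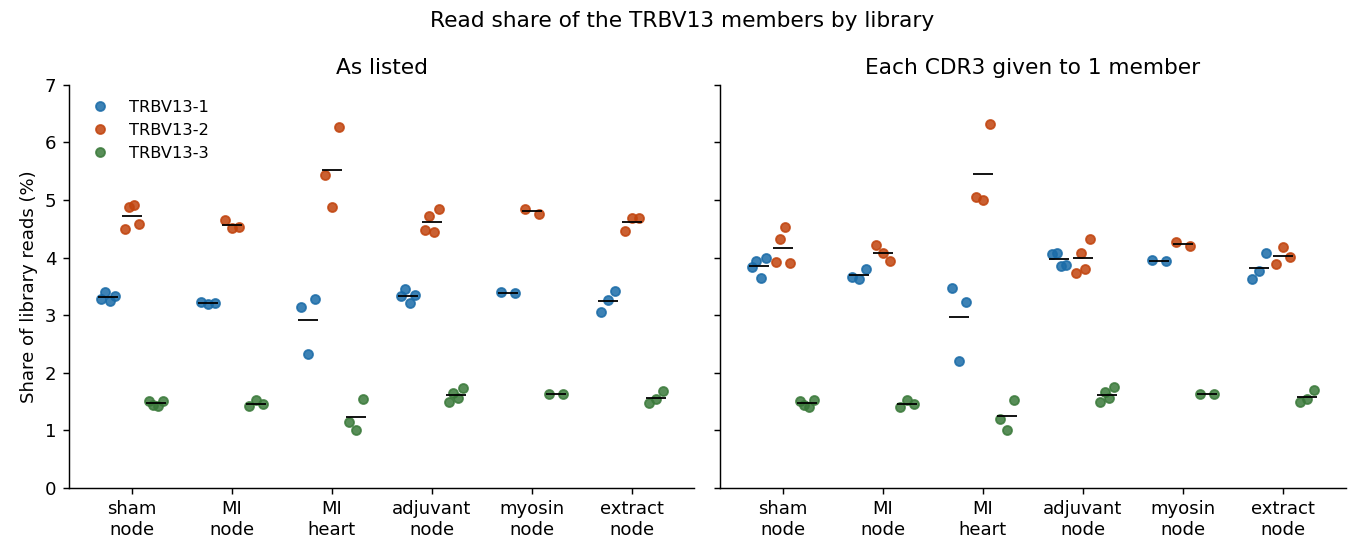
Share of all TRB reads (percent) of TRBV13-1, TRBV13-2 and TRBV13-3 in each of the 19 libraries, by group, as listed (left) and with each CDR3 given to 1 member (right); points are libraries and lines are group means. As listed, TRBV13-2 lies above TRBV13-1 in every library; with reassigned reads the 2 members overlap in sham, adjuvant and extract nodes and not in MI nodes, myosin nodes or hearts.

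The loop itself differed between members by small amounts that recurred in nearly every node. The listed CDR3 had a read-weighted mean length of 12.06 residues ± 0.0407 in TRBV13-2, 11.99 ± 0.0293 in TRBV13-1 and 11.89 ± 0.0361 in TRBV13-3 (SD, n = 16), against 12.09 over all segments. TRBV13-3 minus TRBV13-1 was −0.0983 residues and TRBV13-3 minus TRBV13-2 was −0.166 residues, in 16 of 16 nodes (adjusted p = 3.52e-05 each, exact sign-flip permutation). TRBV13-2 exceeded TRBV13-1 by 0.0680 residues in 16 of 16 nodes at the same p. With reassigned reads that last difference turned to −0.0265 residues and did not pass (adjusted p = 0.0731, exact sign-flip permutation).

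Net charge was counted over the centre of the CDR3, with 4 residues left off each end, so the openings do not enter it. It averaged 0.0741 ± 0.0102 in TRBV13-1, 0.123 ± 0.00879 in TRBV13-2 and 0.115 ± 0.0257 in TRBV13-3, against −0.0518 over all segments (n = 16 nodes). TRBV13-2 exceeded TRBV13-1 by 0.0486 and TRBV13-3 exceeded TRBV13-1 by 0.0405, each in 16 of 16 nodes (adjusted p = 3.52e-05, exact sign-flip permutation). TRBV13-3 minus TRBV13-2 was −0.0081, below 0 in 10 of 16 nodes, and did not pass (p = 0.132, exact sign-flip permutation). In axillary nodes alone it was −0.0199 and passed (adjusted p = 0.0195, exact sign-flip permutation), and in mediastinal nodes alone it was 0.0072 and did not.

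In the nodes TRBV13-3 used the TRBJ1 cluster most and TRBV13-2 least. TRBJ1 segments made up 47.9% ± 3.57 of TRBV13-3 reads, 45.4% ± 2.90 of TRBV13-1 reads and 43.0% ± 2.62 of TRBV13-2 reads (SD, n = 16), against 43.3% over all segments. TRBV13-2 minus TRBV13-1 was −2.47 points and TRBV13-3 was 4.91 points above TRBV13-2 in 16 of 16 nodes (adjusted p = 3.52e-05, exact sign-flip permutation). TRBV13-3 was 2.44 points above TRBV13-1 in 15 of 16 nodes (adjusted p = 6.54e-05, exact sign-flip permutation). With reassigned reads TRBV13-2 minus TRBV13-1 was −4.51 points.

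Among single TRBJ segments, TRBJ1-4 was used most by TRBV13-1 (14.1% ± 1.07 of its node reads) and by TRBV13-2 (13.0% ± 1.05), and TRBJ1-1 by TRBV13-3 (14.8% ± 1.50). TRBJ1-5 was used least by all 3 members, at 2.93% ± 0.291, 2.74% ± 0.565 and 2.98% ± 0.450. Over all segments in nodes TRBJ1-1 was likewise used most (14.8% ± 1.43) and TRBJ1-5 least (2.44% ± 0.214). In hearts TRBJ1-4 led in TRBV13-1 (15.99% ± 4.73) and TRBV13-2 (17.2% ± 5.07), and TRBJ2-7 led in TRBV13-3 (22.0% ± 9.37, n = 3). The TRBJ1 share of TRBV13-3 was 34.8% ± 7.84 in hearts, with 26.1%, 37.0% and 41.3% in hearts 1, 2 and 3, while its nodes ranged from 39.7% to 53.1%. In the same hearts the TRBJ1 share was 43.1%, 46.7% and 49.9% for TRBV13-2 and 42.7%, 45.6% and 48.5% for TRBV13-1. So as listed TRBV13-2 was highest and TRBV13-3 lowest in each heart, the reverse of the order in nodes. The 10 most abundant entries held 43.6% to 76.7% of TRBV13-3 reads in hearts. Of TRBV13-1 heart reads, 98.7% to 99.2% had a CDR3 and TRBJ also listed under TRBV13-2. The heart order was not tested.

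**Figure D3:**
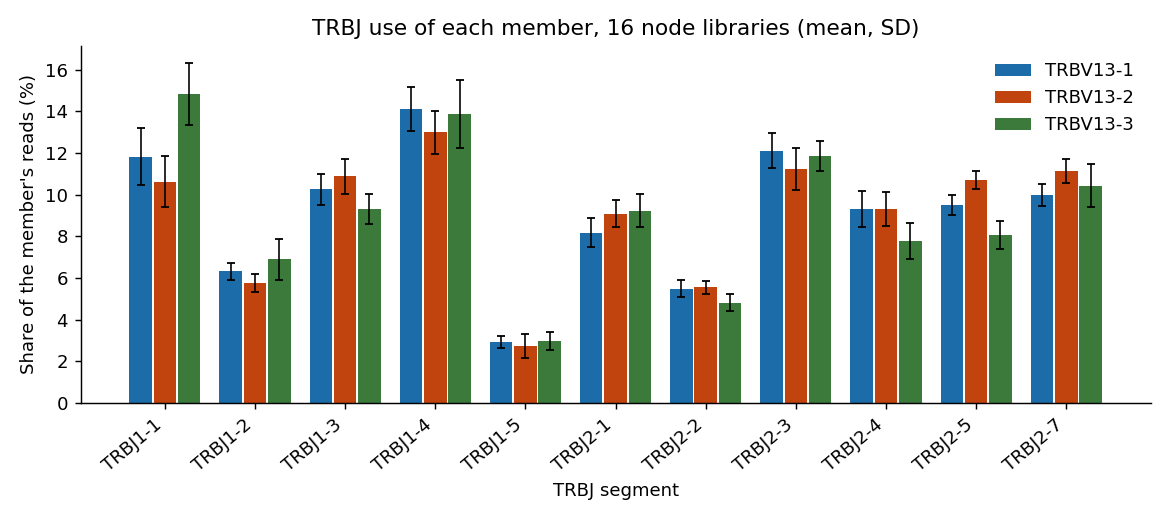
Share of each member's reads that carried each of the 11 TRBJ segments (percent); bars are means over the 16 nodes and whiskers are SD. TRBJ1-4 is highest for TRBV13-1 and TRBV13-2, TRBJ1-1 for TRBV13-3, and TRBJ1-5 is lowest for all 3.

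At equal reads in the nodes TRBV13-2 held the most distinct entries and TRBV13-3 the fewest. When 106661 reads were drawn from each member in each node, TRBV13-1 gave a mean of 13121 entries (3812 to 28437), TRBV13-2 16314 (4617 to 34117) and TRBV13-3 6573 (1987 to 15400). The draw kept much of what was listed: in MI node 1 all 12592 TRBV13-3 entries and 31186 of 37899 TRBV13-2 entries. In sham node 4 it kept 2571 of 2589 and 6919 of 7503. Equal reads are not equal cells, and members with more reads also listed more entries. How far the order below repeats the order of read shares was not tested. Nodes differed several-fold from each other, but as listed the order of the members was the same in 16 of 16. TRBV13-2 exceeded TRBV13-1 by 3193 entries and TRBV13-3 minus TRBV13-1 was −6548 (adjusted p = 3.52e-05 each, exact sign-flip permutation). With reassigned reads the lead of TRBV13-2 over TRBV13-1 was 1262 entries (adjusted p = 0.0299, exact sign-flip permutation). TRBV13-1 then gave more entries than TRBV13-2 in adjuvant nodes 1, 2 and 3 and extract nodes 1 and 3. TRBV13-3 minus TRBV13-1 was then −3127.5 (adjusted p = 4.58e-05, exact sign-flip permutation).

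Hearts held few entries of each member. At 27813 reads drawn per member, TRBV13-1 gave 233 to 338 entries in hearts against a median of 9217.5 in nodes. TRBV13-2 gave 241 to 306 against 10471.5, and TRBV13-3 94 to 172 against 5299.5. Heart libraries came from 5000 cells and node libraries from 500000, and the part of this in the difference was not tested. The 10 most abundant entries held 37.9% ± 10.8 of TRBV13-1 reads, 35.2% ± 2.80 of TRBV13-2 reads and 57.8% ± 17.1 of TRBV13-3 reads in hearts (n = 3). In nodes they held 1.78% ± 0.766, 2.03% ± 1.63 and 2.64% ± 1.22 (n = 16). Of the 100 most abundant entries, which held 57.7% to 69.9% of heart reads, none was TRBV13-1 or TRBV13-3 and 1, 2 and 2 were TRBV13-2 in hearts 1, 2 and 3. Those entries held 5.47%, 16.5% and 9.36% of the TRBV13-2 reads of their heart.

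Some entries recurred in every node. Of the node entries of TRBV13-1, TRBV13-2 and TRBV13-3, 9, 16 and 0 were listed in all 16 nodes. These were 0.00592%, 0.00796% and 0% of each member's node entries, against 0.00642% over all segments. In contrast, 78.7%, 78.0% and 81.3% were listed in 1 node (80.9% over all segments). The strings below led by mean share of the library among those listed in the most nodes (16 nodes, or 15 for TRBV13-3). They show the opening most common in each member.
TRBV13-1, TRBJ1-4, mean 0.00308%: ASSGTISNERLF
TRBV13-1, TRBJ1-3, mean 0.00229%: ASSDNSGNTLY
TRBV13-2, TRBJ1-3, mean 0.00463%: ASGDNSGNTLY
TRBV13-2, TRBJ1-3, mean 0.00408%: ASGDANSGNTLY
TRBV13-2, TRBJ2-7, mean 0.00199%: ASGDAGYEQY
TRBV13-3, TRBJ1-4, mean 0.000978%: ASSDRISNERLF
TRBV13-3, TRBJ2-3, mean 0.000787%: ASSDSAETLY

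The string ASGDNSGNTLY was also the most abundant TRBV13-2 entry of the MI node and the myosin node groups by mean share, with 0.00158% to 0.00745% over the 16 nodes. It was not listed in any heart. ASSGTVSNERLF (TRBJ1-4) led TRBV13-1 in MI nodes, with 0.00435%, 0.00522% and 0.00317% in MI nodes 1, 2 and 3, and was listed in 15 of 16 nodes. Several other leading entries of node groups rested on 1 library. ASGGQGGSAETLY (TRBJ2-3) led both TRBV13-1 and TRBV13-2 in sham nodes, and it lay at 0.0423% under TRBV13-1 and 0.0965% under TRBV13-2 in sham node 2. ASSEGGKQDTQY led TRBV13-1 in adjuvant nodes, through 0.0338% in adjuvant node 2, and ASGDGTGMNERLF led TRBV13-2 there, through 0.0281% in adjuvant node 4. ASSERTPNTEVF led TRBV13-1 in myosin nodes at 0.0193% in myosin node 2, and no other node listed it. In extract nodes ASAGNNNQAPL led TRBV13-2 (0.0217% in extract node 2) and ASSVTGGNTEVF led TRBV13-3 (0.0110% in extract node 3). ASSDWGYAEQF led TRBV13-3 in MI nodes, at 0.0156% in MI node 3, and heart 3 listed it with 712 reads.

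Entries of the hearts were partly found in nodes. Of TRBV13-1 reads in hearts 1, 2 and 3, 26.2%, 35.1% and 37.1% were of entries also listed in the MI node of the same number. The shares were 17.8%, 37.7% and 38.7% for TRBV13-2 and 29.2%, 45.8% and 33.1% for TRBV13-3. Over all segments they were 38.9%, 44.5% and 43.5%, so 8 of these 9 member values lay below the value of all segments in the same heart, and TRBV13-3 in heart 2 lay above it. The node of the same number was not always the one that shared most: for TRBV13-1, heart 2 shared 41.0% of its reads with MI node 1, and for TRBV13-2, heart 1 shared 23.7% with MI node 2. The 2 most abundant entries of each member in a heart were each listed in that heart alone among the 3. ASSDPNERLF of heart 1 was listed under TRBV13-1 in 10 of 16 nodes, and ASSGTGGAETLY of heart 2 in 12 of 16.

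No member passed the test between MI nodes and sham nodes. TRBV13-1 was at 3.21% ± 0.0140 in MI nodes (SD, n = 3) and 3.31% ± 0.0665 in sham nodes (n = 4), and the groups did not overlap, though by little. With reassigned reads they overlapped, at 3.63% to 3.80% in MI nodes and 3.64% to 3.99% in sham nodes. The log2 fold change of MI over sham was −0.04 (SE 0.0353) for TRBV13-1, −0.05 (SE 0.0387) for TRBV13-2 and −0.0049 (SE 0.0580) for TRBV13-3, with adjusted p = 0.976, 0.976 and 0.995 in edgeR's quasi-likelihood test over 22 segments. None of the 3 members passed, and 0% of the 22 segments did; at an unadjusted p under 0.05 edgeR gave 0 of 22, and 0 members passed in DESeq2. Of the 33 pairs of a member with a TRBJ segment, 0 passed in edgeR (0% of 242 pairs over all segments), with 0 of 33 and 5 of 242 at an unadjusted p under 0.05.

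The call for TRBV13-1 and TRBV13-2 depended on entries with few reads. When entries under 10 reads were left out, TRBV13-1 was lower in MI nodes at −0.33 on the log2 scale (adjusted p = 0.0318, edgeR) and TRBV13-2 by −0.31 (adjusted p = 0.00608, edgeR). In MI nodes such entries held 16.3% to 39.6% of TRBV13-1 reads and 15.9% to 36.6% of TRBV13-2 reads. In sham nodes they held 1.74% to 30.7% and 1.69% to 26.7%. Over all segments they held 0.884% to 7.02% of node reads. Leaving such entries out lowers the share of a member with more of them by construction, so nothing is read from this direction. The part of low counts in this call was not tested further.

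The ratio of one member to another needs no library total. The log2 ratio of TRBV13-2 to TRBV13-1 was 0.51 ± 0.0168 in MI nodes and 0.51 ± 0.0664 in sham nodes (p = 0.971, exact two-sided permutation). For TRBV13-3 to TRBV13-1 it was −1.14 ± 0.0581 in MI nodes and −1.18 ± 0.0588 in sham nodes (p = 0.457, exact permutation). The smallest p that 3 against 4 libraries allow is 0.0571.

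No member passed the test between nodes with a heart antigen and nodes with adjuvant alone. With the myosin and extract nodes together (5 libraries) against adjuvant nodes (4 libraries), the log2 fold change was −0.02 (SE 0.0310) for TRBV13-1, 0.02 (SE 0.0339) for TRBV13-2 and −0.01 (SE 0.0509) for TRBV13-3. None passed in edgeR (adjusted p = 0.896, 0.896 and 0.911), 0 of 3 had an unadjusted p under 0.05, and 0 passed in DESeq2, where 9.09% of the 22 segments passed in edgeR. Of the 33 member pairs with a TRBJ segment 0 passed (0% of 242), with 2 of 33 and 21 of 242 at an unadjusted p under 0.05 in edgeR. Between TRBV13-2 and TRBV13-1 the log2 ratio was 0.51 ± 0.0379 with antigen and 0.47 ± 0.0460 without (p = 0.222, exact permutation). The effect of antigen minus the effect of MI was 0.03, 0.07 and −0.0096 on the log2 scale for TRBV13-1, TRBV13-2 and TRBV13-3 (adjusted p = 0.858, 0.858 and 0.963, edgeR), so a difference between the 2 effects was not detected.

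Between sham mediastinal nodes and adjuvant axillary nodes no member passed in level in edgeR, and 10 of 33 member pairs with a TRBJ segment did, a share near that of all pairs. TRBV13-1 and TRBV13-2 did not pass in level, with log2 fold changes of sham over adjuvant of −0.01 (SE 0.0327, adjusted p = 0.784, edgeR) and 0.03 (SE 0.0358, adjusted p = 0.510, edgeR). TRBV13-3 was at 1.46% ± 0.0511 in sham nodes and 1.60% ± 0.110 in adjuvant nodes, with 1.48% in adjuvant node 1 inside the sham range. At −0.13 on the log2 scale (SE 0.0537) it missed the threshold narrowly (adjusted p = 0.0513, edgeR). It passed with TMM factors (−0.19, adjusted p = 0.0257, edgeR), in DESeq2 (−0.17, adjusted p = 0.00357), with reassigned reads (−0.14, adjusted p = 0.0495, edgeR) and without adjuvant node 1 (adjusted p = 0.0275, edgeR). None of the 3 members passed in the edgeR fit, 1 of 3 had an unadjusted p under 0.05, and 45.5% of the 22 segments passed. The log2 ratio of TRBV13-3 to TRBV13-2 was −1.69 ± 0.114 in sham and −1.53 ± 0.0465 in adjuvant nodes (p = 0.0571, adjusted p = 0.129, exact permutation; smallest p 0.0286).

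Of the 33 pairs of a member with a TRBJ segment, 10 passed between sham and adjuvant nodes (edgeR, adjusted p under 0.05 over 242 pairs), close to the 28.1% of all 242 pairs that passed. Of these, 7 were lower in sham nodes, all with TRBJ1 segments, and 3 were higher, all with TRBJ2 segments. That split depended on the scaling: with TMM factors and in DESeq2, which moved the median of all 242 pairs from 0.15 to 0.01 and 0.06, 9 member pairs were lower and 0 higher. Over all 242 pairs 40 were higher and 28 lower, against 20 and 38 with TMM factors and 39 and 37 in DESeq2. Among the other segments 19 of 95 TRBJ1 pairs were lower and 6 higher, and 31 of 114 TRBJ2 pairs were higher and 2 lower. The median log2 fold change of TRBJ1 pairs was −0.20 for the members and −0.01 for the other segments, and that of TRBJ2 pairs was 0.10 and 0.30. TRBJ1-1 and TRBJ1-4 passed in all 3 members, each lower in sham nodes. TRBJ1-2 passed in TRBV13-3, TRBJ2-1 in TRBV13-1, and TRBJ2-4 in TRBV13-1 and TRBV13-2.

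The pair of TRBV13-1 and TRBJ1-1 held 0.387%, 0.337%, 0.336% and 0.299% of all reads in sham nodes and 0.462%, 0.437%, 0.390% and 0.420% in adjuvant nodes, and the groups did not overlap. Its log2 fold change was −0.33 (SE 0.0798, adjusted p = 0.00725, edgeR). The pair of TRBV13-3 and TRBJ1-2 held 0.104%, 0.0867%, 0.0928% and 0.0788% in sham nodes and 0.143%, 0.116%, 0.112% and 0.138% in adjuvant nodes, again apart. At −0.49 on the log2 scale (SE 0.134, adjusted p = 0.0147, edgeR) it was the farthest from 0 among the 10 that passed. TRBV13-3 with TRBJ1-1 was at −0.38 (SE 0.105, adjusted p = 0.0163, edgeR), with adjuvant node 1 (0.208%) below sham node 1 (0.218%).

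TRBV13-1 with TRBJ1-4 was lower in sham nodes, at 0.401% to 0.446% against 0.485% to 0.517% (log2 fold change −0.23, SE 0.0651, adjusted p = 0.0184, edgeR). TRBJ2-4 was higher in sham nodes with TRBV13-1, at 0.340% ± 0.0256 against 0.285% ± 0.0229 (0.25, SE 0.0726, adjusted p = 0.0196, edgeR), and with TRBV13-2, at 0.479% ± 0.0273 against 0.407% ± 0.0424 (0.24, SE 0.0712, adjusted p = 0.0240, edgeR). Both TRBJ2-4 calls were lost with TMM factors (adjusted p = 0.245 and 0.293, edgeR) and in DESeq2 (adjusted p = 0.0674 and 0.0978). All 6 of these pair calls were lost when distinct entries were counted in place of reads, at adjusted p from 0.0889 to 0.786 (edgeR). The number of member pairs that passed was 3 without sham node 4, 5 without adjuvant node 4, and 6 without adjuvant node 1 or adjuvant node 3.

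**Figure D4:**
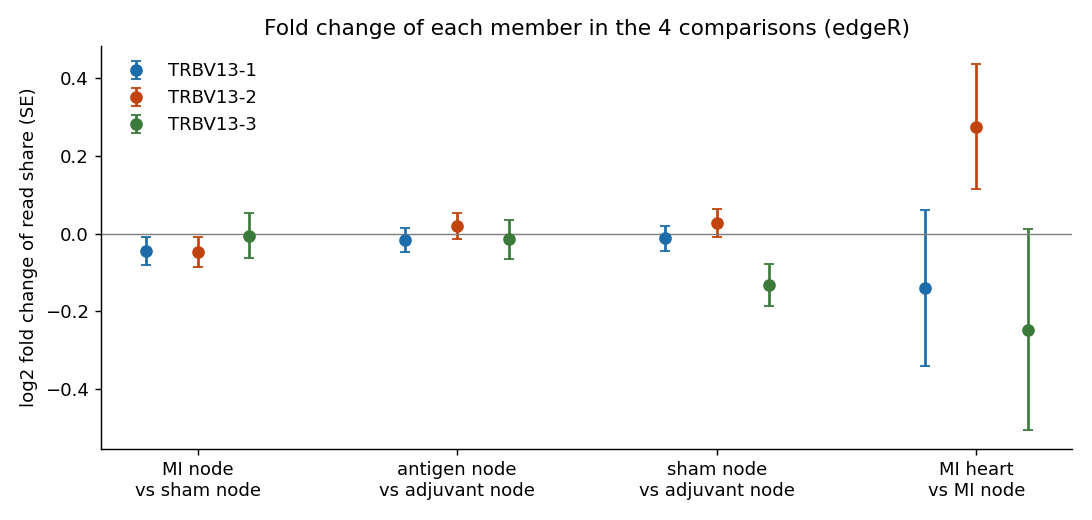
Log2 fold change of each member (edgeR, with SE bars) in the 4 comparisons: MI over sham nodes, antigen over adjuvant nodes, sham over adjuvant nodes, and MI hearts over MI nodes. In the 3 node comparisons every member lies between −0.13 and 0.03, and the bars of the heart comparison are the widest.

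In infarcted hearts TRBV13-2 lay above and TRBV13-3 mostly below their level in MI nodes, and neither passed in edgeR. All 3 hearts (4.88% to 6.27%) were above all 3 MI nodes (4.52% to 4.65%) for TRBV13-2, at 0.28 on the log2 scale (SE 0.160, adjusted p = 0.245, edgeR over 22 segments). The log2 fold change was −0.14 (SE 0.202, adjusted p = 0.673, edgeR) for TRBV13-1 and −0.25 (SE 0.259, adjusted p = 0.501, edgeR) for TRBV13-3, against a median of −0.21 over the 22 segments (−0.03 with TMM factors, under which TRBV13-1 was at 0.04). None of the 3 members passed in edgeR and none had an unadjusted p under 0.05, where 27.3% of the segments passed. That fit did not use the pairing of hearts and MI nodes of the same number, and the replicate block changed no call of a member. TRBV13-2 passed in DESeq2 (0.41, adjusted p = 0.0311) and without heart 2 (0.36, adjusted p = 0.0118, edgeR). With reassigned reads it was at 0.42 (adjusted p = 0.0666, edgeR), and TRBV13-1 and TRBV13-2 summed were at 0.12 (SE 0.140, adjusted p = 0.560, edgeR).

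The heart values depended on what was counted. Without the 100 most abundant entries of each library, which held 57.7% to 69.9% of heart reads and 1.42% to 5.60% of node reads, the log2 fold changes were 1.32 for TRBV13-1, 1.58 for TRBV13-2 and 1.20 for TRBV13-3, and all 3 passed (adjusted p = 1.78e-06, 4.76e-08 and 1.04e-06, edgeR), as did 11 of the 22 segments. Taking those entries out raises the share of any member with few of them by construction, so nothing is read from this direction. When distinct entries were counted in place of reads they were −0.26, −0.51 and −0.59, and all 3 passed in that direction (adjusted p = 0.0452, 1.48e-06 and 0.0288, edgeR), as did 10 of the 22 segments.

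By reads, the ratio of TRBV13-2 to TRBV13-1 was higher in all 3 hearts than in all 3 MI nodes. Its log2 value was 0.79, 1.08 and 0.94 in hearts 1, 2 and 3 and 0.53, 0.50 and 0.50 in MI nodes 1, 2 and 3, a difference of 0.42 (p = 0.1, the smallest that 3 against 3 allow; adjusted p = 0.15, exact permutation). The log2 ratio of TRBV13-3 to TRBV13-2 was −2.25, −2.28 and −2.03 in hearts and −1.72, −1.58 and −1.64 in MI nodes, a difference of −0.54 with the same p by the exact permutation test. Neither could reach a p under 0.05 in this design. The permutation also did not use the pairing of hearts and MI nodes of the same number. With reassigned reads the differences were 0.76 and −0.66. For distinct entries in place of reads the first turned to −0.25 and the second was −0.0911. Among strings shared by both members, 35.9% to 37.5% of the reads lay under TRBV13-1 in hearts and 51.1% to 54.1% in nodes. The part of this split in the ratio was not tested.

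**Figure D5:**
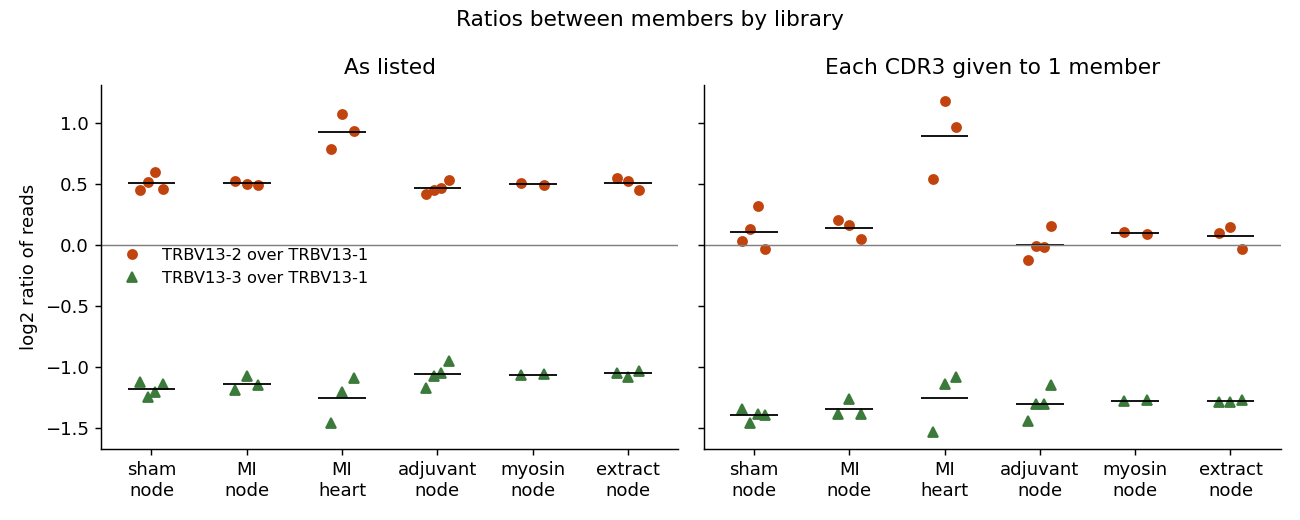
Log2 ratio of TRBV13-2 to TRBV13-1 and of TRBV13-3 to TRBV13-1 in each of the 19 libraries, by group, as listed (left) and with each CDR3 given to 1 member (right); points are libraries and lines are group means. As listed, TRBV13-2 over TRBV13-1 lies at 0.79 to 1.08 in hearts and at 0.42 to 0.60 in nodes.

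Of the 33 member pairs with a TRBJ segment, 0 passed between hearts and MI nodes in edgeR, where 22.0% of 236 pairs passed; 3 of 33 and 71 of 236 had an unadjusted p under 0.05. DESeq2 called 7 of the 33, 6 higher and 1 lower, against 81 of all 236, 18 higher and 63 lower. Without heart 1 edgeR called 3 of the 33 and 74 of all 236, and without heart 3 it called 6 and 78. The median log2 fold change was −0.04 for the members' pairs and −0.61 for all 236. Hearts and MI nodes of the same number were paired, and with that replicate block 0 of the 33 member pairs and 0 of all 236 passed in edgeR.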

How the data were processed

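Per the labels, TRB transcripts of 19 sorted CD4+ T cell RNA samples were amplified by the provider and sequenced on a HiSeq. The deposited tables hold raw read counts per CDR3, V and J segment, with no normalization by the authors. Not given in the sources used here: the aligner, error correction and segment reference. The labels name iRepertoire as the provider and its arm-PCR as the method.

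Reads were summed per V segment, and per V-J pair with at least 20 reads in at least 3 libraries, over the whole tables. They were tested with edgeR 4.0.16 (R 4.3.3; quasi-likelihood, library total as offset, all 16 nodes in 1 fit, hearts with MI nodes only), with Benjamini-Hochberg adjustment and a threshold of 0.05. Ratios between members were tested by exact two-sided permutation and adjusted over the 3 ratios of a comparison. Hearts and MI nodes were treated as unpaired in these tests, except where the replicate block is named. Member features were tested by exact sign-flip permutation over the 16 nodes and adjusted over 15 tests. Shares have 95% Wilson intervals. Permutation p-values double the smaller tail. The scripts were tested on simulated data; Python 3.11.15, numpy 2.4.6, pandas 2.3.3 and matplotlib 3.10.9 were used.

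Named items were the 3 members, the 3 segments most like each, each member's most and least used TRBJ, up to 6 passing pairs per comparison by smallest p, and leading CDR3 entries per node group and heart. The members and lists were chosen with earlier results of these data known.

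Same-numbered hearts and MI nodes correlated at 0.191, 0.174 and 0.269 in their deviations from the group means, and other heart and MI node pairs at −0.235 to 0.0513, so their numbers were taken as paired; the other groups share only a number. The alternatives were a minimum of 10 reads per entry, distinct entries in place of reads, leaving out the 100 most abundant entries, TMM factors, DESeq2 1.42.0, other filters and fits, the replicate block, and leaving out each library. Reassigning or summing CDR3s of the family was chosen after seeing the data.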

Additional observations from a re-analysis of the deposited data

Results flagged for a closer look

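In groups of 4 libraries, 48 sets of member values were examined for a highest or lowest library far from the rest by Dixon's 95% limit. That rule flags about 1 in 20 by chance, or 2.4 of 48, and 2 were found, both in adjuvant node 1. For TRBV13-1 the net charge of the CDR3 centre averaged 0.0751 in adjuvant node 1, and the other adjuvant nodes lay between 0.0674 and 0.0687. The TRBJ1 cluster share of TRBV13-2 was 46.3% in adjuvant node 1, against 43.5% to 43.8% in the other adjuvant nodes.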

How the results depend on the processing

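Of the 15 differences between members over the nodes, 69 of 72 values under other settings kept their direction and their side of the threshold, as did 239 of 240 with 1 library left out. TRBV13-2 minus TRBV13-1 in CDR3 length turned to −0.0265 residues with reassigned reads. TRBV13-3 minus TRBV13-2 in charge turned to 0.0072 in mediastinal nodes alone, passed at −0.0199 in axillary nodes alone, ran from −0.0105 to −0.0057 with a library left out, and passed without sham node 4 (adjusted p = 0.0475, exact sign-flip permutation). Fold changes of members kept both in 93 of 131, ratios in 43 of 54 and counts of calls in 64 of 82. The cause of the other values was not tested.

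For MI over sham nodes, leaving out entries under 10 reads gave −0.33 for TRBV13-1 and −0.31 for TRBV13-2, both passing, and 2 segments that passed. Distinct entries gave 0.0610, 0.0771 and 0.11 for TRBV13-1, TRBV13-2 and TRBV13-3. TRBV13-3 was at 0.0305 with TMM factors, 0.0056 in DESeq2, 0.0214 with the replicate block, and −0.0330 to 0.0186 with a library left out. The log2 ratio of TRBV13-2 to TRBV13-1 was 0.0195 without entries under 10 reads, 0.0187 for distinct entries, 0.0147 without the 100 most abundant entries, 0.0296 with reassigned reads, and −0.0192 to 0.0283 with a library left out.

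For antigen over adjuvant nodes, distinct entries gave 0.0480 for TRBV13-1 and 0.0382 for TRBV13-3, myosin nodes alone 0.0214 and 0.0177, and TRBV13-1 and TRBV13-2 summed 0.0047. TRBV13-2 was at −0.00077 with TMM factors and −0.0031 with extract nodes alone, and TRBV13-3 at 0.0168 with the replicate block. With a library left out TRBV13-1 ran from −0.0350 to 0.0110 and TRBV13-3 from −0.0500 to 0.0262. Segments that passed numbered 0 for distinct entries, TMM factors and myosin nodes alone, 1 in DESeq2 and with the replicate block, and 0 to 2 with a library left out. Between TRBV13-3 and TRBV13-1 the log2 ratio was −0.0016 with myosin nodes alone, −0.0088 for distinct entries, −0.0030 without the 100 most abundant entries, and −0.0322 to 0.0413 with a library left out.

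For sham over adjuvant nodes, distinct entries gave 0.13 for TRBV13-1 and 0.0224 for TRBV13-3, and TRBV13-1 and TRBV13-2 summed 0.0115. TRBV13-2 was at −0.0864 without entries under 10 reads, −0.0296 with TMM factors and −0.0061 in DESeq2. TRBV13-3 passed at −0.14 with reassigned reads, −0.19 with TMM factors and −0.17 in DESeq2. With a library left out TRBV13-1 ran from −0.0304 to 0.0045 and TRBV13-3 from −0.17 to −0.0906. Segments that passed numbered 6 for distinct entries, 5 with only the compared groups fitted, and 6 to 10 with a library left out. Member pairs with a TRBJ segment that passed numbered 2, 4 and 3 to 12 in the same settings, and 9 with the replicate block. For distinct entries the log2 ratios of TRBV13-3 to TRBV13-1 (−0.11) and to TRBV13-2 (−0.15) passed (adjusted p = 0.0429 each, exact permutation).

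For hearts over MI nodes, TRBV13-1 was at 0.31 without entries under 10 reads, −0.26 for distinct entries (passing), 1.32 without the 100 most abundant entries, 0.0440 with TMM factors, 0.0017 in DESeq2 and 0.12 with TRBV13-1 and TRBV13-2 summed. TRBV13-2 passed at 0.69, −0.51 and 1.58 in the first 3 of these settings and at 0.41 in DESeq2. TRBV13-3 was at 0.22, −0.59 (passing) and 1.20 (passing) in the same 3. With a library left out TRBV13-1 ran from −0.23 to 0.00081 and TRBV13-2 from 0.18 to 0.36. Segments that passed numbered 10 for distinct entries, 11 without the 100 most abundant entries, 1 without edgeR's legacy settings and 3 without low-share segments. Member pairs numbered 1 for distinct entries, 16 without the 100 most abundant entries, 1 with reassigned reads, 7 in DESeq2, and 0 to 6 with a library left out. TRBV13-2 over TRBV13-1 had a log2 ratio of −0.25 for distinct entries, and TRBV13-3 over TRBV13-1 one of 0.0920 with reassigned reads. The replicate block changed no call of a member in level.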
